A study of Mus musculus with 4 samples.

Results

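The genes described here are 7 outputs of the circadian clock whose products act on other clock-controlled genes: *Nr1d1* and *Nr1d2*, which encode the nuclear receptors REV-ERBα and REV-ERBβ, *Rora*, which encodes the receptor RORα, the PAR bZIP transcription factor genes *Dbp* and *Tef*, the related repressor gene *Nfil3* (E4BP4), and *Ciart* (CHRONO). They were chosen by name, with earlier results of these data known, and are 7 of the 15298 genes in the table. RNA was measured by bulk RNA-seq in peritoneal macrophages of 6-week-old female BALB/c mice, sorted as CD11b+ F4/80+ Ly6G- cells. All mice were anesthetized with isoflurane and carried electrode pads on the abdomen and the back, and the MCS mice received microcurrent stimulation of 300 µA at 400 Hz in bidirectional pulses for 15 min at zeitgeber time (ZT, hours after lights on) 2, whereas the control mice, labelled as not treated, went through the procedure without current. Cells were collected at ZT2, directly after the end of MCS, or at ZT14, 12 h later, which gives 4 groups with 1 library each: control ZT2, control ZT14, MCS ZT2 and MCS ZT14. How many mice gave the cells of a library could not be found in the labels or methods, the current passed through the whole abdomen and not only through macrophages, and no difference between conditions has a replicate check.

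In the mammalian clock, the heterodimer of CLOCK and ARNTL (BMAL1) activates genes through E-boxes in their promoters, among them *Nr1d1*, *Nr1d2*, *Dbp*, *Tef* and *Ciart*. REV-ERBs repress and RORs activate genes that carry a ROR response element (RORE), such as *Arntl* and *Nfil3*, while DBP, TEF and HLF activate and NFIL3 represses genes with a D-box. REV-ERBs also repress inflammatory and migration genes in macrophages, and CIART is a repressor that binds ARNTL.

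The libraries held 8365590 to 9953243 reads. Values are CPM (counts per 1000000 reads, scaled between libraries), and 1 read equaled 0.102 to 0.116 CPM. The 8 macrophage markers, among them *Adgre1* (F4/80) and *Itgam* (CD11b), summed to between 25168 and 27939 CPM. Most of this sum was *Lyz2*, with 17344 to 18847 CPM, so it says little of the other markers. *Adgre1* had 1327, 1361, 1086 and 1900 CPM in control ZT2, control ZT14, MCS ZT2 and MCS ZT14. *Itgam* had 5162, 4214, 4760 and 4831 CPM in the same order. Mast cell markers summed to between 891 and 2089 CPM and B cell markers to between 863 and 1218 CPM. Neutrophil markers had 5.52 to 69.7 CPM, with 5 of 6 genes listed and *Ly6g* not listed, and 0 of 4 eosinophil markers were listed. Red blood cell markers, 4 of 5 listed, had 2.54 CPM in control ZT2, 1.10 CPM in control ZT14, 23.8 CPM in MCS ZT2 and 72.4 CPM in MCS ZT14, and so were higher in both MCS libraries. Fibroblast markers summed to between 3.73 and 17.9 CPM. In bulk RNA, fewer cells of a type and less RNA per cell cannot be told apart.

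All 7 genes lie on different chromosomes in GRCm38 (mm10, the build named in the submitters' processing notes), as annotated in GENCODE M21. *Nr1d1* is at chr11:98767932-98775333 (- strand), *Nr1d2* at chr14:18204054-18239127 (-) and *Rora* at chr9:68653786-69388246 (+). *Dbp* is at chr7:45705088-45710203 (+), *Tef* at chr15:81802421-81826863 (+), *Nfil3* at chr13:52967209-52981073 (-) and *Ciart* at chr3:95878503-95882251 (-). The promoter windows of RefSeq (GRCm38.p6), from 250 bases before to 50 bases after a start site, were searched on both strands for the letters of 3 clock elements. Each of the 7 genes had a window, and *Tef* had 2, for its 2 start sites. The canonical E-box CACGTG was found for *Ciart*, at 3 places, and for *Tef*, at 1 place before each start, against 8.09% of 27025 genes. The E-box variant CACGTT was found for *Nr1d1*, against 5.44% of genes. These sites are shown because they carry the letters to which CLOCK and ARNTL are known to bind, in 30 bases each on the strand of the gene, 5′ to 3′, with the matched letters in capitals. For *Nr1d1* the capitals read CACGTT on the opposite strand.
Ciart, first site, chr3:95882327-95882356: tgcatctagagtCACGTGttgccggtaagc
Ciart, other sites, chr3:95882262-95882291: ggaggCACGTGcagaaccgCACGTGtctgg
Tef, before the first start, chr15:81802534-81802563: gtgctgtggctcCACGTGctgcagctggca
Tef, before the second start, chr15:81811264-81811293: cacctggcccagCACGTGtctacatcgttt
Nr1d1, chr11:98775388-98775417: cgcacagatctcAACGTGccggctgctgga

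The matches of *Ciart* began 116, 58 and 44 bases upstream of the start site and that of *Nr1d1* began 28 bases upstream, all outside the gene as GENCODE draws it. Those of *Tef* began 127 and 138 bases upstream of their own start, in an exon and in an intron of the GENCODE gene. The core motif AGGTCA of ROR response elements, present in 18.1% of genes, was found for *Nfil3*, 12 bases upstream of the start and in a GENCODE exon, and for *Nr1d2*, 77 bases upstream. A full RORE was found in the windows of 0.459% of genes and in none of the 7, and a D-box of the letters TTATGNAA in 3.99% and in none of the 7. The full RORE searched for ended in AGGTCA or GGGTCA, and so could hold the core motif within it. None of the matches in these genes overlapped a match of another motif. *Dbp* and *Rora* had no match in these windows.

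Both REV-ERB genes had their highest level in the control library at ZT14. *Nr1d1*, the repressor REV-ERBα, had 4.27 CPM (37 reads) in control ZT2, 26.0 CPM (237) in control ZT14, 4.52 CPM (39) in MCS ZT2 and 8.38 CPM (82) in MCS ZT14. The ZT2 libraries lay within counting error of each other, and MCS ZT14 lay between them and control ZT14. At ZT14 MCS against control gave a log2 ratio of -1.62 (95% interval -2.02 to -1.27), and at ZT2 it was 0.08 (-0.60 to 0.77). Log2 ratios are of CPM + 0.1, and their intervals are exact conditional binomial intervals on the reads, which cover counting error only and not the difference between mice.

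*Nr1d2*, which encodes REV-ERBβ and is co-expressed with *Nr1d1* in many tissues, had 27.8 CPM (241 reads), 94.3 CPM (858), 28.7 CPM (247) and 47.6 CPM (466), in the same order of libraries. Its 4 levels ranked as those of *Nr1d1* did, with smaller distances. The log2 ratio of MCS to control was -0.98 (-1.15 to -0.82) at ZT14, just inside a log2 difference of 1, and 0.04 (-0.22 to 0.30) at ZT2. The ratio of *Nr1d1* to *Nr1d2* reads was 0.154 in control ZT2, 0.276 in control ZT14, 0.158 in MCS ZT2 and 0.176 in MCS ZT14. The share of *Nr1d1* was therefore highest in control ZT14. At ZT14 this ratio differed between MCS and control by -0.65 on the log2 scale (-1.07 to -0.24), and at ZT2 by 0.04 (-0.70 to 0.78). The change at ZT14 minus that at ZT2 was -0.69, with an interval that included 0 (-1.49 to 0.11).

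**Figure D1:**
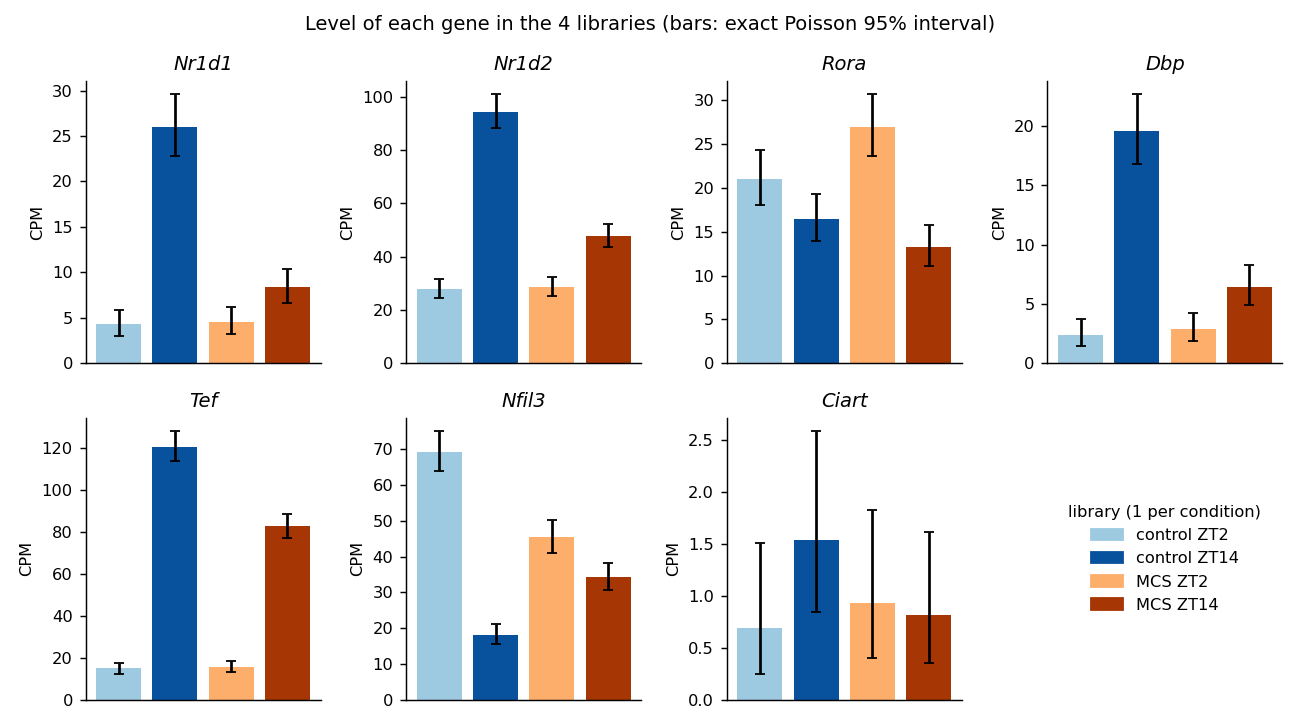
Level of the 7 genes in CPM (vertical axis, from 0, its own scale in each panel) in the 4 libraries, 1 per condition, with exact Poisson 95% intervals of the reads. *Nr1d1*, *Nr1d2*, *Dbp* and *Tef* stand highest in control ZT14 and *Nfil3* stands lowest there, while MCS ZT14 lies between the 2 control libraries for these 5 genes.

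*Rora*, whose product activates through the same elements that REV-ERBs occupy, followed another order. Its levels were 21.0 CPM (182 reads) in control ZT2, 16.5 CPM (150) in control ZT14, 26.9 CPM (232) in MCS ZT2 and 13.3 CPM (130) in MCS ZT14. The ZT2 libraries stood above the ZT14 libraries, and the MCS libraries held the highest and the lowest value. MCS against control gave a log2 ratio of 0.36 (0.07 to 0.64) at ZT2 and -0.31 (-0.66 to 0.04) at ZT14. The 4 mast cell markers together, which are not genes of macrophages, had the same order, with 1708 CPM in control ZT2, 1114 CPM in control ZT14, 2089 CPM in MCS ZT2 and 891 CPM in MCS ZT14. NK cell markers, 4 of 4 listed, were also higher at ZT2, with 26.0 and 32.7 CPM against 13.7 and 14.0 CPM at ZT14. Their part in the level of *Rora* was not tested.

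The plot of read ratios sets the REV-ERBs against RORα. The reads of *Nr1d1* and *Nr1d2* together were 1.53 times those of *Rora* in control ZT2 (1.26 to 1.85), 7.30 times in control ZT14 (6.15 to 8.72), 1.23 times in MCS ZT2 (1.03 to 1.47) and 4.22 times in MCS ZT14 (3.48 to 5.14). These ratios do not take gene length into account, so only their differences between libraries can be read. The REV-ERB side was highest in control ZT14 and second in MCS ZT14. At ZT14 the ratio was 1.73-fold lower in MCS than in control (log2 -0.79, -1.17 to -0.41), and at ZT2 the log2 change was -0.31 (-0.69 to 0.07). From ZT2 to ZT14 the ratio was 4.78-fold higher in control and 3.42-fold higher in MCS, and the interval of the difference between these time changes, 0.48 on the log2 scale, included 0 (-0.04 to 1.0).

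**Figure D2:**
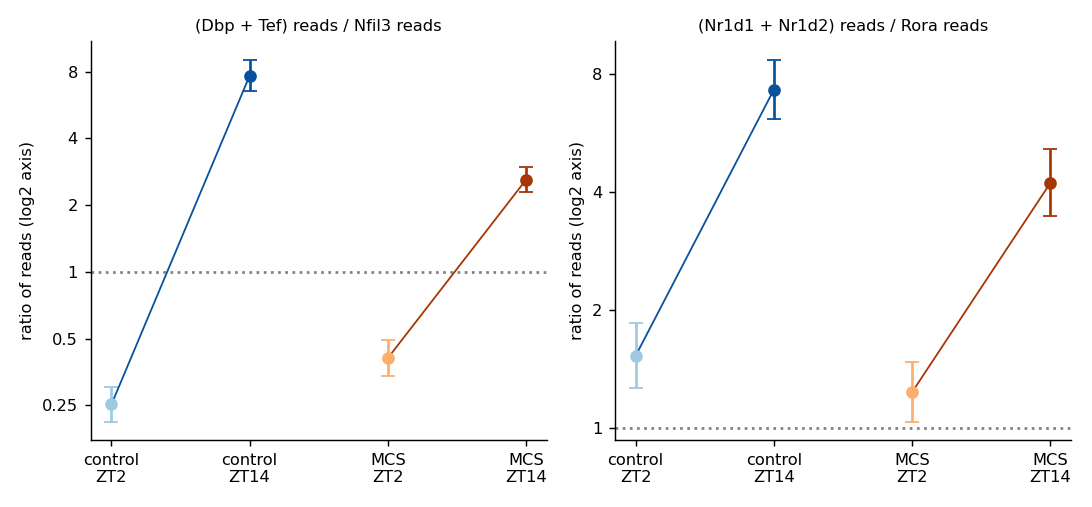
Ratio of *Dbp* and *Tef* reads to *Nfil3* reads (left) and of *Nr1d1* and *Nr1d2* reads to *Rora* reads (right) in each library, on a log2 axis, with 95% counting intervals, and lines joining the time points of control and MCS. The left ratio spans 0.252 to 7.68 in control and 0.408 to 2.60 in MCS, and the right ratio spans 1.53 to 7.30 and 1.23 to 4.22.

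The D-box activators were also highest in control ZT14. *Dbp*, a direct E-box target that is among the most strongly cycling transcripts in many tissues, had 2.43 CPM (21 reads) in control ZT2, 19.6 CPM (178) in control ZT14, 2.90 CPM (25) in MCS ZT2 and 6.44 CPM (63) in MCS ZT14. Its MCS library at ZT14 stood above both ZT2 libraries and below control ZT14, with no overlap of the Poisson intervals. The log2 ratio of MCS to control was -1.59 (-2.04 to -1.18) at ZT14 and 0.25 (-0.64 to 1.17) at ZT2.

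*Tef*, another PAR bZIP activator at D-boxes, had 15.01 CPM (130 reads), 120.5 CPM (1097), 15.7 CPM (135) and 82.7 CPM (809), in the same order. Both ZT14 libraries stood far above both ZT2 libraries, and its MCS level at ZT14 stayed nearer to that of control than the level of *Dbp* did. The log2 ratio of MCS to control was -0.54 (-0.68 to -0.41) at ZT14 and 0.06 (-0.30 to 0.42) at ZT2. *Dbp* reads were 0.162 of the *Tef* reads in both control libraries, 0.185 in MCS ZT2 and 0.0779 in MCS ZT14. The MCS change of this ratio was -1.06 on the log2 scale at ZT14 (-1.52 to -0.61) and 0.20 at ZT2 (-0.78 to 1.18). At ZT14 the difference between *Dbp* and *Tef* therefore exceeded counting error. *Hlf*, the remaining PAR bZIP gene, had 2 to 4 reads per library.

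*Nfil3*, the D-box repressor, ran opposite to the activators. It had 69.2 CPM (599 reads) in control ZT2, 18.2 CPM (166) in control ZT14, 45.5 CPM (392) in MCS ZT2 and 34.3 CPM (335) in MCS ZT14. The MCS libraries lay between the control libraries, and no Poisson interval overlapped another. MCS against control gave a log2 ratio of -0.60 (-0.79 to -0.42) at ZT2 and 0.91 (0.64 to 1.19) at ZT14. *Nfil3* was the only 1 of the 7 genes whose interval excluded 0 at both times.

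The reads of *Dbp* and *Tef* together were 0.252 times those of *Nfil3* in control ZT2 (0.209 to 0.302), 7.68 times in control ZT14 (6.53 to 9.08), 0.408 times in MCS ZT2 (0.337 to 0.492) and 2.60 times in MCS ZT14 (2.29 to 2.96). These ratios, too, do not take length into account. The balance was higher at ZT14 than at ZT2 in both conditions, and the span between the times was narrower in MCS. It was 30.5-fold in control (log2 difference of ZT2 from ZT14 -4.93, -5.29 to -4.57) and 6.38-fold in MCS (-2.67, -3.00 to -2.34). Against control, the balance in MCS was 2.95-fold lower at ZT14 (log2 -1.56, -1.87 to -1.26) and 1.62-fold higher at ZT2 (0.70, 0.31 to 1.08).

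*Ciart*, the ARNTL-binding repressor, was close to the limit of detection. It had 0.693 CPM (6 reads) in control ZT2, 1.54 CPM (14) in control ZT14, 0.928 CPM (8) in MCS ZT2 and 0.818 CPM (8) in MCS ZT14. The Poisson intervals of all 4 libraries overlapped. Its log2 ratio of MCS to control was -0.84 at ZT14 (-2.37 to 0.44) and 0.37 at ZT2 (-1.30 to 2.23), so neither a difference nor its absence could be shown at this depth.

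Some reads of these genes could belong to a neighbour on the opposite strand, because the library kit kept the strand but the labels and methods do not say how strand was set in the counting. The 3′ end of *Nr1d1* shares 1075 bases with *Thra*, the thyroid hormone receptor gene, at chr11:98767932-98769006. *Thra* had 12.6, 14.5, 14.2 and 14.4 CPM in control ZT2, control ZT14, MCS ZT2 and MCS ZT14. Its log2 ratio of MCS to control was -0.01 at ZT14 (-0.36 to 0.35). How reads of shared bases were divided between such neighbours was not tested. *Dbp* shares 737 bases with *Sphk2*, a sphingosine kinase gene with 56.1, 77.4, 58.2 and 82.2 CPM. *Sphk2* was higher at ZT14 as *Dbp* was, but not lower in MCS. All 3749 bases of *Ciart* lie within the antisense gene *C920021L13Rik*, which had 1.04 to 2.76 CPM, so the reads of *Ciart* are uncertain. The shared bases of all these neighbours were counted over whole genes, introns included, and how many lie in exons was not tested. The antisense genes that overlap *Rora* and *Tef*, *Gm15511* and *Gm17597*, were not listed.

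Per kilobase of the longest coding transcript, the scale on which genes can be compared, the order of levels changed with time. In control ZT2 *Nfil3* had the highest level with 34.1 CPM per kb, followed by *Nr1d2* with 5.97, *Tef* with 3.41, *Rora* with 1.93, *Nr1d1* with 1.57, *Dbp* with 1.32 and *Ciart* with 0.357. In control ZT14 *Tef* was first with 27.4 CPM per kb and *Nr1d2* second with 20.2, followed by *Dbp* with 10.6, *Nr1d1* with 9.57 and *Nfil3* with 9.0, and *Rora* and *Ciart* were last with 1.51 and 0.793. In MCS ZT14 *Tef* had 18.8, *Nfil3* 16.9, *Nr1d2* 10.2, *Dbp* 3.51 and *Nr1d1* 3.08 CPM per kb. Which transcripts macrophages use is not known from these values, and neighbours in these orders can change places with the length chosen. With the median length of each gene's coding transcripts, *Nr1d2* with 17.6 CPM per kb came between *Tef* with 36.3 and *Nfil3* with 16.9 in MCS ZT14, and in control ZT2 *Dbp* with 1.94 came before *Nr1d1* with 1.57.

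A gene was counted as past the fold when its log2 ratio lay beyond 1 in either direction and the log2 mean CPM of its libraries was above 0. For MCS against control at ZT14, 2 of 7 genes were past the fold, *Nr1d1* and *Dbp*, both lower in MCS, against 3.4% of the 12368 genes tested (1.57% past the fold and lower). The counting interval excluded 0 for 5 of 7 genes, against 37.6% of all genes, since counting error is small for well-expressed genes. Over the 7 genes the log2 ratios had a median of -0.84, and over all genes tested they had a median of 0.00394. Among the 9163 genes with a log2 mean above 3, *Nr1d1* had the 4th lowest, *Dbp* the 5th lowest and *Nr1d2* the 34th lowest ratio, and *Nfil3* had the 81st highest.

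At ZT2, directly after MCS, 0 of the 6 genes tested were past the fold, against 2.21% of all genes, and *Ciart* did not reach the minimum. The interval excluded 0 for 2 genes, *Nfil3* and *Rora*, against 22.5% of all genes, a share near the background. *Nfil3* had the 67th lowest ratio of 9180 genes and *Rora* the 447th highest.

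Between times in control, 6 of 7 genes were past the fold, against 3.61% of all genes, and 5 of them were lower at ZT2, as were 1.19% of all genes. These were *Tef* (log2 ratio of ZT2 to ZT14 -3.00, -3.28 to -2.74), *Dbp* (-2.96, -3.74 to -2.35), *Nr1d1* (-2.58, -3.15 to -2.10), *Nr1d2* (-1.76, -1.97 to -1.55) and *Ciart* (-1.05, -2.82 to 0.32), the last with an interval that included 0. *Ciart* was no longer past the fold with a pseudocount of 1 CPM (-0.58) or with a log2 mean above 3 as the minimum, which left 5 genes. *Nfil3* was higher at ZT2 (1.92, 1.67 to 2.18), and *Rora* differed by less than the fold (0.35, 0.03 to 0.67). The interval excluded 0 for 6 of 7 genes, against 29.5% of all genes. Among 9184 genes, *Tef*, *Dbp*, *Nr1d1* and *Nr1d2* had the 4th, 6th, 7th and 14th lowest ratio, and *Nfil3* had the 11th highest.

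Between times in MCS, 3 of the 6 genes tested were past the fold, against 5.83% of all genes. *Tef* (-2.39, -2.67 to -2.14) and *Dbp* (-1.12, -1.88 to -0.46) were lower at ZT2, and *Rora* (1.01, 0.70 to 1.34) was higher, just outside the threshold. The ratios were -0.88 for *Nr1d1* (-1.48 to -0.32), -0.73 for *Nr1d2* (-0.96 to -0.51) and 0.41 for *Nfil3* (0.19 to 0.62), all inside the fold. The interval excluded 0 for all 6 genes tested, against 44% of all genes.

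**Figure D3:**
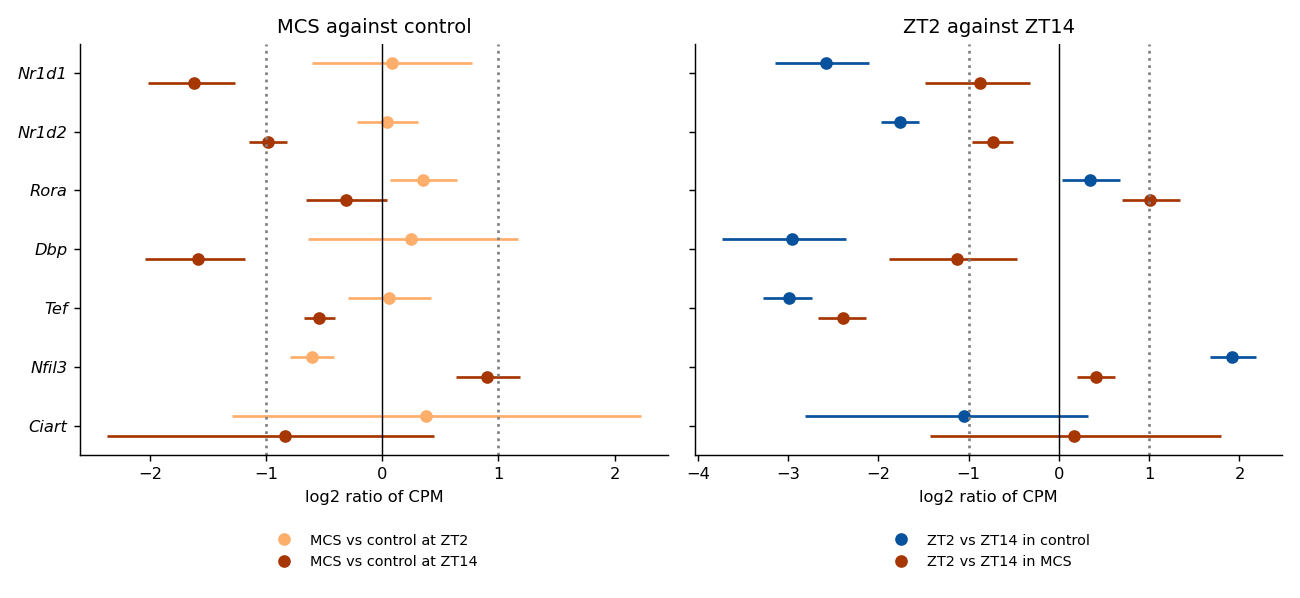
Log2 ratio of CPM for each gene (points) with its 95% counting interval (lines), for the effect of MCS at each time (left) and for ZT2 against ZT14 within each condition (right); dotted lines mark a log2 ratio of 1 in either direction. At ZT14 the points of *Nr1d1* and *Dbp* lie beyond the dotted line on the left, and at ZT2 none of the 7 does.

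The comparisons share libraries, so their values are given side by side. In control, *Nr1d1* was 6.09-fold higher at ZT14 than at ZT2 and in MCS 1.85-fold. *Dbp* went from 8.06-fold to 2.22-fold, *Nr1d2* from 3.39-fold to 1.66-fold and *Tef* from 8.03-fold to 5.28-fold. *Nfil3*, higher at ZT2, went from 3.79-fold to 1.33-fold. As a share of the log2 time difference in control, that in MCS was 21.3% for *Nfil3*, 33.9% for *Nr1d1*, 38.0% for *Dbp*, 41.7% for *Nr1d2* and 79.9% for *Tef*. *Rora* was the exception, with a ZT2 level that was 1.28-fold that at ZT14 in control and 2.02-fold in MCS.

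In 6 of 7 genes (85.7%) the time difference was closer to 0 in MCS, and in the same number the MCS ZT14 level lay between the control levels, with *Rora* outside in both counts. Of the 450 genes past the fold with time in control, 422 also reached the minimum level in the MCS comparison, and of these 79.4% had a time difference closer to 0 in MCS and 70.6% had an MCS ZT14 level between the control levels. The share among the 7 genes is near these background shares, and both counts compare against the same control libraries that chose the 422 genes. The 7 genes did not have to meet the criteria of the 422. *Rora* was not past the fold in control (log2 0.35), and *Ciart* did not reach the minimum level in MCS. The plot of time differences places the 7 genes among the others.

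**Figure D4:**
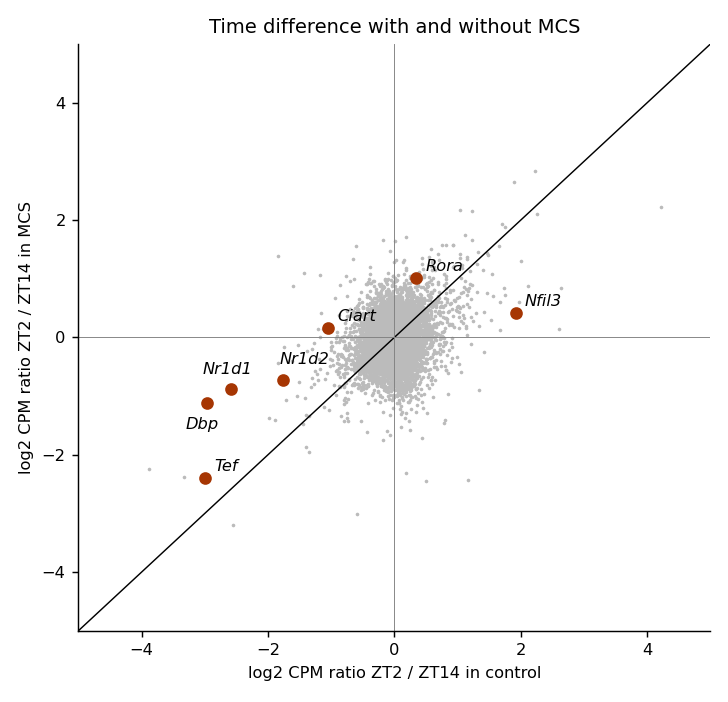
Log2 ratio of ZT2 to ZT14 in MCS (vertical) against that in control (horizontal), for 9027 genes with a log2 mean above 3 in both comparisons (grey) and the 7 genes (brown, *Ciart* shown although below that minimum), with the line of equal values. *Nr1d1*, *Nr1d2*, *Dbp*, *Tef*, *Nfil3* and *Ciart* lie nearer to the horizontal axis than the line, and *Rora* lies farther from it.

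A count test was run on the recovered reads, edgeR's quasi-likelihood test with additive terms for time and MCS over the 4 libraries. It has 1 residual degree of freedom and gives MCS a single effect for both times. Time likewise has a single effect for both conditions, although for *Nfil3* the log2 time difference was 1.92 in control and 0.41 in MCS. The test thus takes the 2 conditions as replicates of a time, and its p-values do not measure the spread between animals. For time it called 5 of the 6 genes with at least 40 reads, against 2.38% of 12404 genes. The log2 difference of ZT2 from ZT14 in edgeR's test was -2.70 for *Tef* (adjusted p = 1.28e-12), -2.12 for *Dbp* and -1.25 for *Nr1d2* (both 7.78e-05), -1.79 for *Nr1d1* (0.000141) and 1.16 for *Nfil3* (0.00136), and *Rora* was not called (0.69, adjusted p = 0.101). For MCS edgeR called 0 of 6, against 0.193% of genes, with an unadjusted p under 0.05 for 3 of them: *Nr1d1* (0.00239, adjusted p = 0.593), *Dbp* (0.00636, adjusted p = 1.0) and *Nr1d2* (0.0151, adjusted p = 1.0). A term shared by both times averages the effects at ZT2 and ZT14, and at ZT2 only *Nfil3* and *Rora* had an interval that excluded 0.

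The wider clock was described with lists of genes around the 7. Of 7 core loop genes tested, 0 were past the fold in MCS at ZT14, with 3 above and 4 below 0 and a median of -0.21, and 0 were past it at ZT2. In control, 4 of them were past the fold and lower at ZT2 (*Per2*, *Per3*, *Cry1* and *Cry2*) and 2 were past the fold and higher (*Per1* and *Arntl*). In MCS 4 were past the fold and lower and 0 past it and higher, with log2 ratios of ZT2 to ZT14 of 0.82 for *Arntl* (0.55 to 1.10) and 0.56 for *Per1* (0.43 to 0.70). *Arntl*, the RORE-driven partner of CLOCK, had 32.3, 14.7, 33.6 and 19.0 CPM in control ZT2, control ZT14, MCS ZT2 and MCS ZT14, and at ZT14 MCS stood above control by a log2 ratio of 0.37 (0.04 to 0.70). *Arntl* and *Nfil3*, both known REV-ERB targets, were above control at ZT14 and both REV-ERB genes were below it. A link between these differences was not tested. Of 4 RORE-driven clock genes tested, with *Nfil3* among them, 0 were past the fold at ZT14, 3 were above and 1 below 0, and the median was 0.24. Besides *Arntl* and *Nfil3* these were *Clock*, with a log2 ratio of 0.10 (-0.03 to 0.24), and *Cry1*, with -0.25 (-0.52 to 0.02). Of 7 D-box clock genes, 3 of which are *Nr1d1*, *Nr1d2* and *Rora*, 6 were below 0 at ZT14, 1 of them past the fold (*Nr1d1*), with a median of -0.71. Of all 12368 genes tested, 6132 were below 0. The D-box genes outside the members had log2 ratios of 0.17 (*Per1*), -0.85 (*Per2*), -0.71 (*Per3*) and -0.25 (*Cry1*). Among the remaining E-box outputs, *Bhlhe41*, a repressor at E-boxes, had a log2 ratio of -0.69 (-0.83 to -0.57) and *Wee1*, a cell cycle kinase gene, of 0.77 (0.41 to 1.15). The intervals of *Bhlhe40* (0.04, -0.05 to 0.13) and *Usp2* (-0.40, -1.23 to 0.39) included 0, and 0 of 4 were past the fold.

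Among the partners of the REV-ERBs and the metabolic targets of the D-box factors, no gene was past the fold with MCS. Of 5 genes of the corepressor complex that REV-ERBs recruit, 0 were past the fold at either time, with medians of -0.15 at ZT14 and 0.20 at ZT2. *Ncor1*, a corepressor that binds REV-ERBs, had a log2 ratio of -0.40 (-0.47 to -0.33) at ZT14. Of 5 genes for kinases and ubiquitin ligases that act on REV-ERB stability, 0 were past the fold, with a median of -0.17 at ZT14. *Por*, *Alas1* and *Pdxk*, metabolic targets of PAR bZIP factors in liver, had log2 ratios of -0.16, -0.02 and -0.44 at ZT14, and 0 of 3 were past the fold.

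Of 6 genes that REV-ERBs are known to repress in macrophages, 0 were past the fold at ZT14, with 4 above and 2 below 0 and a median of 0.16, and 1 of 5 tested was past it at ZT2. *Nlrp3*, the inflammasome sensor, had 41.6 CPM in control ZT2, 19.0 in control ZT14, 40.1 in MCS ZT2 and 35.9 in MCS ZT14. The control ZT14 library was the lowest, and the log2 ratio of MCS to control there was 0.91 (0.65 to 1.19). *Mmp9*, a matrix metalloproteinase gene, had 113.6, 91.2, 147.9 and 108.6 CPM, with ratios of 0.38 (0.26 to 0.50) at ZT2 and 0.25 (0.12 to 0.38) at ZT14, and *Cx3cr1*, the fractalkine receptor gene, had 0.37 (0.01 to 0.74) and 0.44 (0.05 to 0.84). *Il1b*, the gene past the fold at ZT2, had 1.73, 3.95, 7.08 and 2.15 CPM, with a ratio of 1.97 (1.20 to 2.95) at ZT2 and of -0.85 (-1.73 to -0.07) at ZT14. *Il6*, another cytokine gene and the other below 0 at ZT14, had a ratio of -0.32 (-1.65 to 0.93). Neutrophil markers, which come from cells that also express *Il1b* and *Mmp9*, had 13.9, 17.7, 69.7 and 5.52 CPM in the same order. The sort for Ly6G- cells was meant to remove neutrophils, and their part in these levels was not tested. *Il12b*, a target of NFIL3 in macrophages, was not listed.

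**Figure D5:**
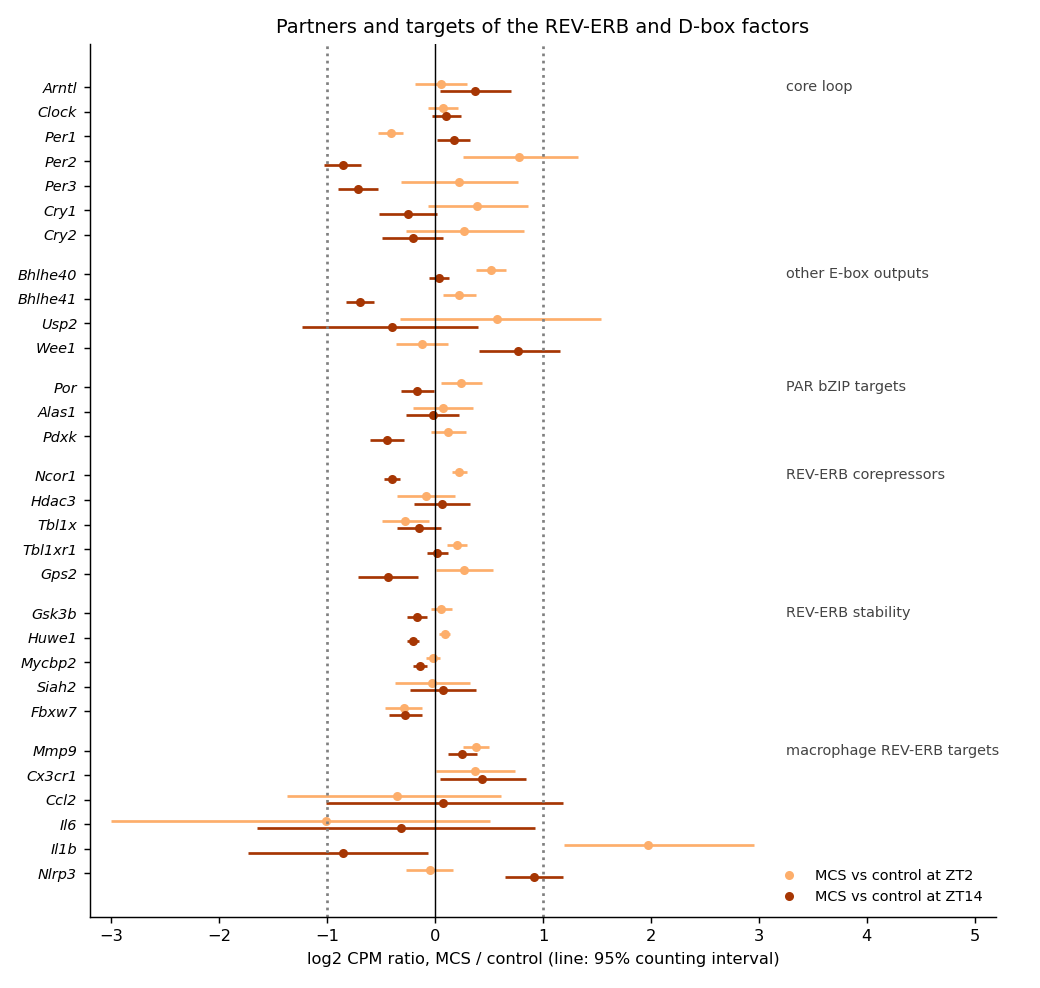
Log2 ratio of MCS to control at ZT2 and ZT14 for 30 genes in 6 lists around the 7 genes (points, with 95% counting intervals as lines; dotted lines at 1 in either direction). At ZT14 none of the points lies beyond the dotted lines, and *Il1b* lies beyond the upper line at ZT2; *Il6* at ZT2 had a log2 mean below the minimum for a call.

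The genes with the most similar pattern were found by the Euclidean distance between log2 profiles over the 4 libraries, each centred on its mean, among 10180 genes with at least 5 CPM on average. With 4 points per profile this is a description of these libraries. Nearest to *Nr1d1* were *Dbp* (distance 0.338), *Nr1d2* (0.663), the heat shock gene *Hspa1b* (0.714), the metabolite receptor gene *Hcar2* (0.809) and the desaturase gene *Scd2* (0.826). Nearest to *Dbp* were *Nr1d1*, *Hspa1b* (0.830), *Nr1d2* (0.917), *Tef* (0.995) and *Per3* (1.021), so that each of *Nr1d1* and *Dbp* was the nearest gene of the other. Nearest to *Nfil3* were *Vcan*, a proteoglycan gene (0.286), *1700071M16Rik* (0.348), *Fgl2* (0.359), *Wee1* (0.375) and *Trim72* (0.436). *Vcan* had 38.2, 12.0, 33.2 and 21.8 CPM and *Fgl2* 98.6, 33.5, 89.7 and 55.0 CPM in control ZT2, control ZT14, MCS ZT2 and MCS ZT14, with the lowest value in control ZT14 as for *Nfil3*.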

How the data were processed

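Reads were trimmed with Trimmomatic 0.38 and counted against mm10 with RSEM 1.3.0 and Bowtie 2, and the authors deposited CPM normalized with edgeR, per the submitters' processing notes and the study's methods. RNA was depleted of rRNA and sequenced as 150 nt paired reads on a DNBSEQ instrument from a directional kit. The annotation, the strand setting and the filter on low values are not given in the sources used here.

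Each deposited CPM column was divided by its smallest step, and 61192 of 61192 values were whole reads within 0.05 read. TMM factors from these reads equaled the scaling of the authors. Levels have exact Poisson intervals, ratios of read sums exact conditional odds ratio intervals, and differences between ratios normal approximations, all at 95% and for counting error only. Thresholds follow the study's methods. As each condition is a single library, the main results carry no test, and the edgeR count test, with Benjamini-Hochberg adjustment, was an alternative. The members, the lists and the tests were chosen with earlier results of these data known. All 7 genes are named, and of each list, at most the 4 genes of highest mean CPM and any past the fold, with the 5 nearest genes in pattern of *Nr1d1*, *Dbp* and *Nfil3* and the genes overlapping a member. Some list genes are not reported here and were left out of the counts of their lists. Alternatives were other pseudocounts (0.01 and 1 CPM), minimum levels, thresholds, scalings and definitions of the balances. Scripts were tested on simulated data. R 4.3.3 ran edgeR 4.0.16, and matplotlib 3.10.9, scipy 1.17.1, pandas 2.3.3 and numpy 2.4.6 were run in Python 3.11.15.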

Additional observations from a re-analysis of the deposited data

Results flagged for a closer look

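For each of the 7 genes and for the D-box balance, the ratio of MCS to control had opposite signs at ZT2 and at ZT14, which is what brought these results here. At ZT2 the interval included 0 for *Nr1d1*, *Nr1d2*, *Dbp*, *Tef* and *Ciart*, so their sign there is not shown, and it excluded 0 for *Nfil3*, *Rora* and the balance. Each value rests on a single pair of libraries, so the difference between the times was not tested across animals, and the intervals (95%, normal approximation on log2 reads) cover counting error only. The log2 effect of MCS at ZT14 minus that at ZT2 was -1.72 for *Nr1d1* (-2.46 to -0.97), -1.03 for *Nr1d2* (-1.33 to -0.72), -1.86 for *Dbp* (-2.79 to -0.93) and -0.60 for *Tef* (-0.97 to -0.23). It was 1.51 for *Nfil3* (1.19 to 1.84), whose effects at both single times exceeded counting error, and -0.67 for *Rora* (-1.11 to -0.23), whose effect at ZT14 alone did not. For *Ciart* it was -1.33, with an interval that included 0 (-3.31 to 0.64). The balance of *Dbp* and *Tef* to *Nfil3* had a difference of -2.26 (-2.73 to -1.78), and the ratio of *Dbp* to *Tef* of -1.26 (-2.26 to -0.25).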

How the results depend on the processing

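No other pseudocount, scaling or definition of the balances turned a direction whose counting interval excluded 0. All 112 log2 ratios of single members under other pseudocounts and scalings stayed within their counting intervals. With TMM they could not move, since its scaling equaled that of the authors, and median scaling shifted libraries by at most 0.0022 log2. The edgeR test, with a single MCS effect for both times, was compared by its calls only. For *Nfil3* that effect was 0.11, against log2 ratios of -0.60 at ZT2 and 0.91 at ZT14. The number of genes past the fold, given here in the order MCS at ZT14, MCS at ZT2, time in control and time in MCS, depended on the criteria. It was 174, 101, 229 and 409 with a pseudocount of 1 CPM, 1615, 1434, 1567 and 2053 without a minimum level, 81, 26, 139 and 197 with a log2 mean above 3, and 1493, 981, 1469 and 2238 with a threshold of 1.5-fold. The edgeR test called 24 genes for MCS (304 at an unadjusted p under 0.05) and 295 for time (1287). Of the members tested, 5 of 7 passed a threshold of 1.5-fold for MCS at ZT14, against 1493 of 12368 genes. For MCS at ZT2 it was 1 of 6, against 981 of 12612 genes, and for time in MCS 5 of 6, against 2238 of 12534. With a pseudocount of 1 CPM, 5 of 7 members were past the fold with time in control, against 229 of 12465 genes. With time in MCS it was 1 of 6, against 409 of 12534. With a log2 mean above 3 these were 5 and 2 members, against 139 of 9184 and 197 of 9204 genes. For time edgeR called 5 of 6 members, and for MCS 0 of 6. The D-box balance changed by -1.97 with MCS at ZT14 and by -2.17 with time in MCS as a mean of log2 values, and by -2.51 and -1.56 with *Dbp* alone. With *Nr1d1* alone the REV-ERB to ROR balance changed by -1.32 with MCS at ZT14 and by -2.96 with time in control. These follow from the unequal ratios of the summed genes. No paired analysis was possible because each condition has 1 library, and leaving out a library leaves a comparison without its value. Depth limits *Ciart*, with 6 to 14 reads per library, and *Dbp* and *Nr1d1* at ZT2, with 21 to 39 reads.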
